A study of Mus musculus with 4 samples.

Results

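The 39 genes described here carry out or accompany DNA replication in S phase: the proteins that load and fire the replicative helicase, the polymerases with their clamp and clamp loader, the enzymes that supply nucleotides, the factors that rebuild chromatin behind the fork, and 3 regulators of entry into S phase. They were chosen by name from a list of replication genes, and each of the 39 was found by its symbol among the 21044 genes of the deposited expression table. RNA-seq was done on microglia, the resident macrophages of the brain, isolated from the corpus callosum of mice at postnatal day 7. The study asked what loss of LAG3, an inhibitory immune receptor, does to white matter microglia early after birth. There were 2 groups of 2 libraries: WT, from floxed mice without the deletion (Lag3fl/fl, genotype label wt), and cKO, from mice with a conditional Lag3 deletion (Lag3cKO-Cx3, genotype label ko). The name of the second group points to a driver at Cx3cr1, a locus that border macrophages and monocytes use as well as microglia. Whether the WT mice carried a driver, and whether a library came from 1 animal or a pool, is not stated in the labels. The p-values below therefore measure only the spread between these libraries.

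Before S phase, the origin recognition complex, CDC6 and CDT1 load rings of the MCM2 to MCM7 helicase onto DNA, and in S phase CDC45 and GINS join each ring and it starts to unwind. DNA polymerase alpha with primase lays down primers, the RFC complex loads the PCNA clamp, and polymerases delta and epsilon extend the strands. E2F transcription factors, held back by the retinoblastoma family until late G1, drive many of these genes, and microglia multiply strongly in the first postnatal weeks.

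E2F proteins bind in promoters, so the letters of the classical E2F site are shown first, for the 5 members with a match before a RefSeq start of the gene and outside every exon of the GENCODE annotation. Promoters of 34 of the 39 members were found among the RefSeq promoters of build GRCm38.p6, which run from 250 bases before a start to 50 after it; Mcm4, Gins1, Gins2, Rfc2 and Pole had no entry. The windows below run 5′ to 3′ along the gene's strand and end at the last base before the RefSeq start, which need not be the GENCODE gene start given with the genes below. The Uhrf1 window belongs to a start inside the gene as GENCODE annotates it. The windows are chr1:128359706-128359845 on the minus strand for Mcm6, chr1:191575545-191575582 on the minus strand for Dtl, chr8:75109326-75109508 on the plus strand for Mcm5, chr17:56304098-56304312 on the plus strand for Uhrf1 and chrX:93632156-93632323 on the minus strand for Pola1. Capitals mark TTTGGCGC or TTTCGCGC, and CCAAT, the letters of the NF-Y box, all read on either strand.
Mcm6: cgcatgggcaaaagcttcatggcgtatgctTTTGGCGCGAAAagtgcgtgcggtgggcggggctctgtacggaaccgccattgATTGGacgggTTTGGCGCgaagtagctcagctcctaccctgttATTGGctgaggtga
Dtl: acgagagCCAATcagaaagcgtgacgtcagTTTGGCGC
Mcm5: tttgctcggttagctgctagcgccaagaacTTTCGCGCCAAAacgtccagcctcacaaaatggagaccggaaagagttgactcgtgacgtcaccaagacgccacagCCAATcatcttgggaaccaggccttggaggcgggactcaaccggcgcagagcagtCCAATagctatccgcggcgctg
Uhrf1: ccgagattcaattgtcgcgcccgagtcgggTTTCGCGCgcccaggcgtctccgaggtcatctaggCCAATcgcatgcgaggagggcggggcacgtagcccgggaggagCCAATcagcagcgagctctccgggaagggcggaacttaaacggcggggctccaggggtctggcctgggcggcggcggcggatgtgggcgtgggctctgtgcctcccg
Pola1: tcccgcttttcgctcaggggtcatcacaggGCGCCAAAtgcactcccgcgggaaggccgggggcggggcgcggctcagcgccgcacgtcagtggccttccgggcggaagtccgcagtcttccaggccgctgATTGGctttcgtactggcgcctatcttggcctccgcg

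In Mcm6 and in Mcm5 a match on one strand overlaps a match on the other, starting 4 bases apart. Over the whole promoter windows, the E2F letters were present in 12 of the 34 members (35.3%), against 0.929% of 27025 genes in the promoter table and 1.83% of the 9391 genes that were both tested and in it. The other 7 members with a match were Orc1, Rfc3, Mcm3, Mcm7, Lig1, Cdt1 and E2f2, whose matches lay in an annotated exon or after the start. CCAAT was present in 58.8% of the members, 41.1% of all genes and 43.2% of the tested genes in the promoter table. The letters TTTGAA or TTCGAA, the CHR element typical of genes used in G2 and mitosis, were present in 17.6% of the members, 21.7% of all genes and 16.8% of the tested genes in the promoter table, against 81.5% of 27 genes of mitosis and G2/M. These are matches of letters in a window; they show neither binding nor activity.

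The libraries held 14645187 to 16770162 counted reads. The labels were checked on Lag3, which had 6064 and 10007 counts in WT and 595 and 257 in cKO, and on Cx3cr1, with 101021 and 96016 counts in WT and 57168 and 45500 in cKO. The second cKO library stood apart: across genes, its correlation with each other library in log2 CPM was 0.783 to 0.802, against 0.872 to 0.910 among the rest, and 317 genes with at least 50 counts in each other library had no count in it. It was also the library without counts of the Y-linked Ddx3y (1485, 1306 and 1795 counts in the others) and with 4355 counts of Xist, which had 0 counts in both WT libraries and 117 in cKO replicate 1, so sex and library cannot be told apart. Microglial markers summed to 12161 to 12794 FPKM in WT and 13202 to 13764 in cKO, with each of the 10 detected everywhere. Of other cell types, 12 markers of neutrophils and monocytes summed to 34.3 and 12.9 FPKM in WT and 24.7 and 128 in cKO, with Mmp8 at 0 in both cKO libraries, and 9 of astrocytes to 47.6 and 35.1 in WT and 42.9 and 102 in cKO, with Fgfr3 at 0 in WT replicate 2. The 9 astrocyte markers were each fitted higher in cKO (median log2 fold change 1.44). Of them, 6 (66.7%) lay above WT in both cKO libraries, where 15.8% of all genes tested did. Myelinating oligodendrocyte markers summed to 24.0 and 21.7 FPKM in WT and 35.8 and 28.3 in cKO, and erythroid markers to 2.78 and 4.96 in WT and 10.5 and 16.1 in cKO. Each tested marker of both lists (6 and 3) was fitted higher in cKO, with median log2 fold changes of 0.76 and 1.77. In each list 2 of them (33.3% and 66.7%) lay above WT in both cKO libraries. Border macrophage markers summed to 95.8 to 114 FPKM and those of oligodendrocyte precursors to 5.47 to 11.8. Those of neurons summed to 1.77 to 5.23, of endothelium to 3.78 to 6.11 and of lymphocytes to 0 to 4.5. The highest sums of the neutrophil, astrocyte, erythroid, border macrophage, neuron and lymphocyte markers were those of cKO replicate 2, although 4 of 5 neuron markers had no count there. The part of these cell types in the values of the replication genes was not tested.

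Of the 39 genes, 36 had reads in all 4 libraries, and Pole, E2f2 and Fen1 each had 0 counts in 1 of them. FPKM is scaled to library size and to a gene length, so levels of different genes compare only as far as the lengths used hold. For 36 members the length implied by FPKM was within 1 base of all GENCODE exon bases, as for Rrm1 (11013) and Mcm3 (3752). Such a length takes in every annotated exon and can exceed that of the transcripts present, unevenly between genes. The order of genes and the shares within complexes given below rest on these lengths. The median member lay at 7.72 to 8.85 FPKM per library, against 4.01 to 4.11 for all genes tested. Values of single genes are given from here on in the order WT replicate 1, WT replicate 2, cKO replicate 1, cKO replicate 2. Mcm3 was highest, at 90.2, 85.2, 93.7 and 93.5 FPKM, followed by Mcm6 at 51.5, 47.1, 47.2 and 47.6 FPKM. Next came Mcm5, Rfc2, Rrm1, Slbp, Gins1, Rfc4 and Mcm2, with means over the libraries of 32.4, 29.8, 25.2, 23.2, 22.4, 21.5 and 20.4 FPKM. The lowest of the 38 members that passed the filter on low counts were Pole, Orc1, E2f2 and Cdc45, at means of 1.24, 1.49, 1.75 and 1.93 FPKM. The remaining member, Fen1, was at 0.130, 0, 0.0246 and 0.197 FPKM.

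**Figure D1:**
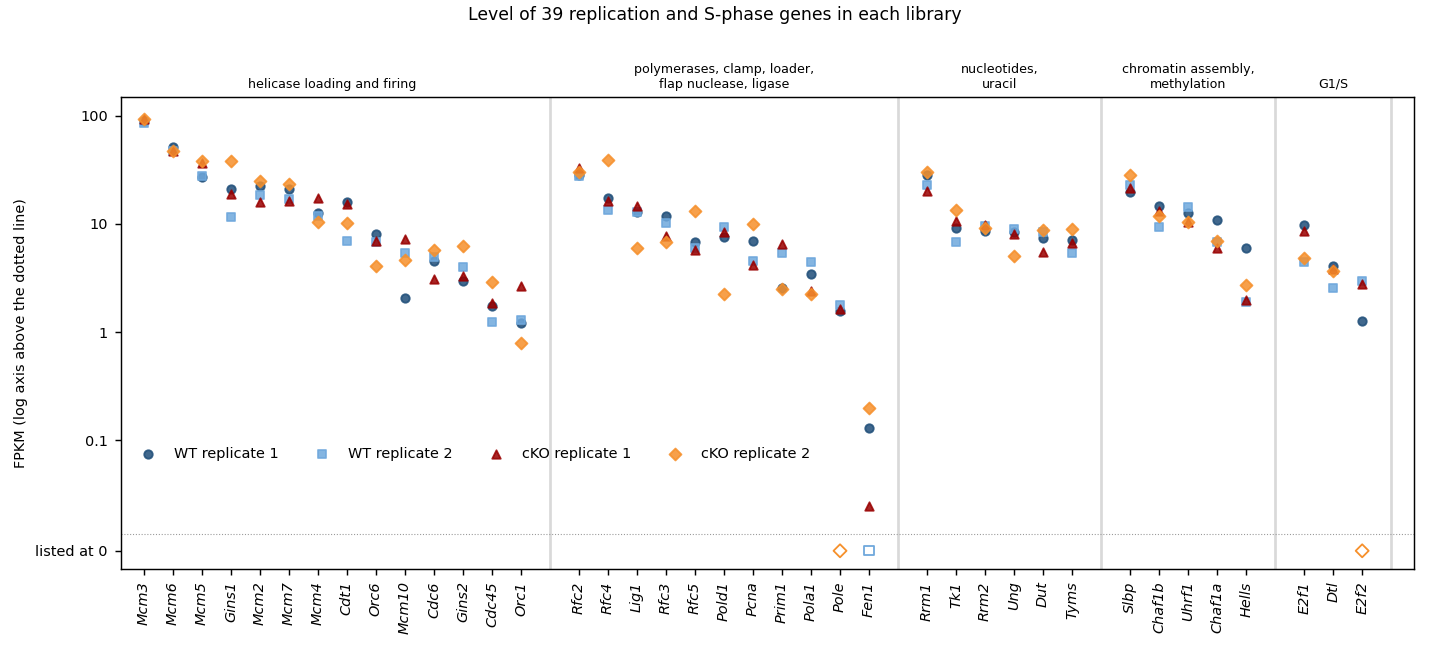
Level of each of the 39 genes in FPKM (log axis; open symbols on the bottom line mark genes listed at 0), ordered by mean level within each role, with 1 symbol per library. Mcm3 sits highest, near 90.7 FPKM on average, and Pole and E2f2 are listed at 0 in cKO replicate 2 alone.

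No difference between the genotypes was detectable in these genes with 2 libraries a group. The 38 members tested were split between the directions: 20 were fitted higher in cKO and 18 lower, and the median log2 fold change was 0.02, against -0.03 over the 13086 genes tested. By edgeR's quasi-likelihood test with Benjamini-Hochberg adjustment, 0 members were called at an adjusted p under 0.05, as were 0 of all genes tested (0%), and the members' adjusted p ran from 0.9997 to 0.9999. DESeq2 also called 0 members, with a lowest adjusted p of 0.979, while it called 39 of 12578 genes (0.310%). At this replication the edgeR test did not call Lag3 either (log2 fold change -4.35, adjusted p 0.9997), although DESeq2 did (adjusted p 1.04e-19). Unadjusted p was under 0.05 for 0 members and 608 genes with edgeR, and for 0 members and 720 genes with DESeq2. In bulk RNA, fewer cells in S phase and less RNA per cell cannot be told apart.

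Of the 38 members, 34 had at least 100 counts in every library. For 26 members the fold change was smaller than its standard error, and for 3 it was over 2 standard errors. The gap between the 2 cKO libraries exceeded that between the groups for 27 members, and the 2 WT libraries did so for 21. This was not particular to the members for the cKO libraries. The median absolute cKO gap was 0.60 on the log2 scale for members and 0.76 for all genes tested. The median absolute fold changes were 0.39 and 0.42, and the median absolute WT gaps 0.29 and 0.36. Without overlap between the groups, 5 members (13.2%) lay above WT in both cKO libraries, where 15.8% of all genes tested did so: Mcm3, Mcm5, Tk1, Cdc45 and Rfc2. Another 7 (18.4%) lay below WT in both, where 20.0% of all genes did so: Mcm6, Uhrf1, Pola1, Rfc3, Chaf1a, Orc6 and Ung. Both shares lie near those of all genes. With the library totals alone as scaling, or in FPKM, the second group shrank to 4, Uhrf1, Pola1, Rfc3 and Ung.

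**Figure D2:**
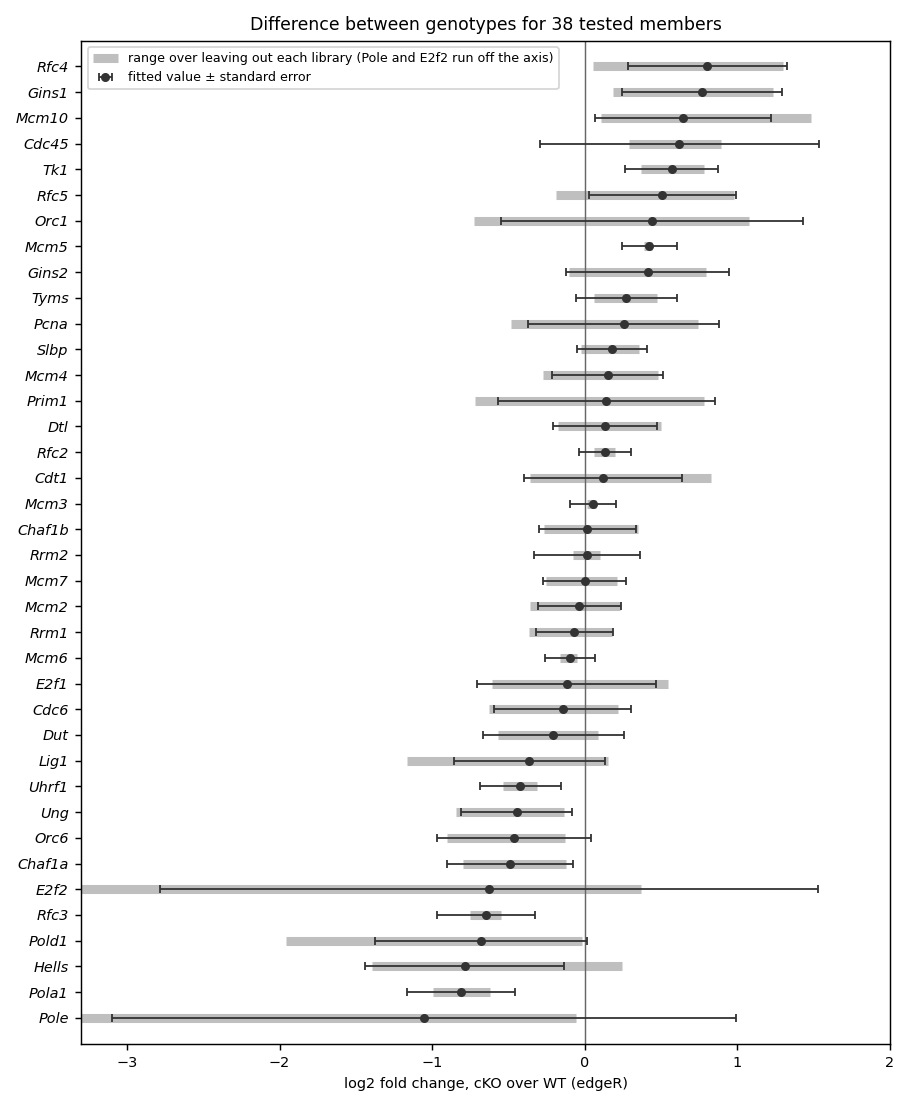
Log2 fold change of cKO over WT for the 38 tested members from edgeR (points, with standard errors as thin lines), with the range of the fitted value when each library is left out in turn as grey bars. Members spread on both sides of 0; the bars are narrow for Mcm3, Mcm5 and Mcm6, cross 0 for 20 members, and run off the axis for Pole and E2f2.

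Of the 14 genes that load and fire the helicase, 9 were fitted higher in cKO, the median on the log2 scale being 0.14. Mcm5, a helicase subunit with E2F letters in its promoter window above, had the smallest unadjusted p of all members. The gene (ENSMUSG00000005410) spans 75109569 to 75128439 on the plus strand of chromosome 8 in GRCm38. Its levels were 109, 112, 147 and 149 CPM, counts scaled to library size by TMM. The groups did not overlap, and libraries of 1 group lay within 4 CPM of each other. In log2 units cKO exceeded WT by 0.42 (SE, the standard error, 0.18) at an edgeR adjusted p of 0.9997, and the value ranged from 0.39 to 0.44 when each library was left out. Mcm10, which helps activate the loaded helicase, was at 16.1, 41.9, 55.9 and 34.7 CPM (log2 fold change 0.64, SE 0.58). The second WT value lay above the second cKO value, and the WT libraries themselves were 1.37 apart on the log2 scale. Gins1, a GINS subunit, was at 32.0, 18.0, 28.3 and 56.7 CPM (log2 fold change 0.77, SE 0.52). The first cKO library lay between the WT values and the second above them. Gins2 had the same pattern less sharply, at 12.2, 16.7, 13.5 and 25.1 CPM.

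The 6 subunits of the MCM2 to MCM7 ring work in equal numbers, yet their transcripts differed in level. Mcm3 supplied 39.3% to 41.2% of the summed FPKM of the 6 genes in each library and Mcm4 4.39% to 7.58%. The ratio of the highest to the lowest subunit was 5.82 to 8.95, the lowest being Mcm2 in cKO replicate 1 and Mcm4 in the other libraries. The place of Mcm2 rests on its implied length of 6956 bases, against 3589 for Mcm4. In CPM, which is not scaled to length, Mcm2 lay above Mcm4 in every library. The sum itself was 224, 207, 228 and 238 FPKM. In this unit, which is not scaled by TMM, the first cKO sum lay only just above the first WT sum. By TMM-scaled CPM, Mcm3 and Mcm5 lay above WT in both cKO libraries and Mcm6 below, while Mcm2, Mcm4 and Mcm7 overlapped. No common direction of the ring genes is read from the sum. Mcm5 took 11.97% and 13.3% of the sum in WT and 16.2% and 16.1% in cKO. Mcm6 took 22.9% and 22.7% in WT and 20.7% and 20.0% in cKO. Mcm2 was at 156, 131, 112 and 168 CPM, Mcm4 at 45.5, 43.2, 61.9 and 36.6 CPM and Mcm7 at 95.0, 77.7, 72.5 and 100.2 CPM. In these 3 subunits the 2 cKO libraries fell on opposite sides of the WT values, and the fitted direction of Mcm2 and Mcm7 depended on the scaling.

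The loading factors showed no common direction. Orc1 was at 4.27, 4.57, 9.35 and 2.67 CPM, so that the cKO libraries were its highest and its lowest. Orc6 was at 20.0, 17.1, 17.0 and 9.93 CPM, with the first cKO library close to the second WT library. Cdc6 was at 24.0, 26.3, 16.3 and 29.3 CPM and Cdt1 at 50.9, 22.3, 48.1 and 31.5 CPM, and the groups overlapped in both. Cdc45, the partner of GINS in the active helicase, had 62, 42, 70 and 95 counts. The cKO values lay above the WT values, but its log2 fold change, 0.62, was smaller than its SE, 0.91.

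**Figure D3:**
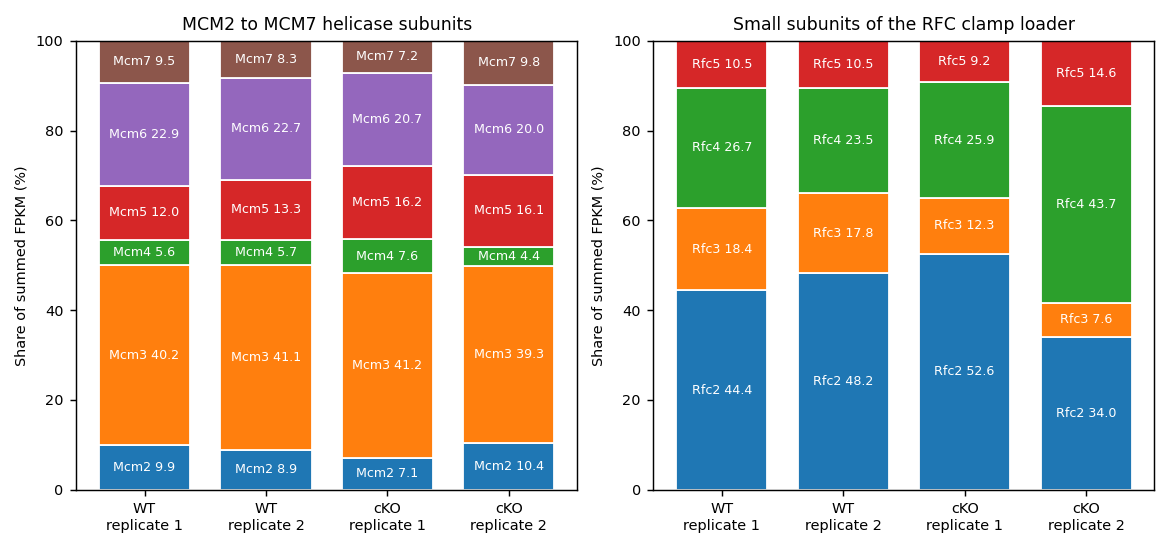
Share of each subunit in the summed FPKM of the MCM2 to MCM7 ring (left) and of the small subunits of the RFC clamp loader (right), in percent per library. Mcm3 holds 39.3% to 41.2% of the ring in each library while Mcm4 runs from 4.39% to 7.58%, and Rfc4 takes 43.7% of the clamp loader sum in cKO replicate 2 against 23.5% to 26.7% in the others.

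Among polymerases, clamp, clamp loader, flap nuclease and ligase, 5 of the 10 tested genes were fitted higher and 5 lower. Their median log2 fold change was -0.12, and it ran from -0.73 without cKO replicate 1 to -0.03 without cKO replicate 2. Pola1 (ENSMUSG00000006678), the catalytic subunit of DNA polymerase alpha, lies on the minus strand of chromosome X from 93304767 to 93632155 in GRCm38. It was at 30.7, 39.7, 20.9 and 19.2 CPM. Both cKO libraries lay below both WT libraries (log2 fold change -0.81, SE 0.36, edgeR adjusted p 0.9997). Its primase partner Prim1 was at 10.01, 21.4, 25.1 and 9.53 CPM, with libraries of both groups at both ends. Pold1, the catalytic subunit of polymerase delta, was at 37.2, 46.2, 41.3 and 10.7 CPM, and Lig1, the ligase that joins Okazaki fragments, at 55.8, 56.6, 62.3 and 25.002 CPM. In both genes cKO replicate 1 lay within or above the WT values and cKO replicate 2 well below them.

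Pole (ENSMUSG00000007080, chromosome 5, 110286306 to 110337474 on the plus strand, GRCm38), the catalytic subunit of polymerase epsilon, had 277, 296, 306 and 0 counts. In CPM these were 17.7, 20.2, 18.2 and 0, so the first cKO library lay between the WT values and the second had no read. Against a floor of 3 counts in cKO replicate 2, the lowest of the other libraries was at least 88.3-fold higher. When cKO replicate 1 was left out, the log2 fold change of Pole was -11.16, in a fit that takes the spread of the lone cKO library from WT. Leaving out cKO replicate 2 instead gave a log2 fold change of -0.06. Pole is 1 of the 317 genes with at least 50 counts in each other library and none in this one.

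The clamp and its loader were uneven. Pcna, the sliding clamp, was at 17.0, 11.1, 10.1 and 23.5 CPM, with the lowest and the highest value both in cKO. Rfc3 (ENSMUSG00000033970, chromosome 5, 151642756 to 151651242 on the minus strand, GRCm38), a small subunit of the clamp loader, was at 43.2, 37.6, 27.6 and 24.0 CPM. Its groups did not overlap (log2 fold change -0.65, SE 0.32, edgeR adjusted p 0.9997). Rfc4, at 26.7, 21.02, 24.7 and 58.6 CPM, gave a log2 fold change of 0.80 (SE 0.52). Rfc5, at 31.9, 28.7, 26.6 and 59.7 CPM, gave 0.51 (SE 0.48). The first cKO library lay between the WT values for Rfc4 and below both for Rfc5, and the second lay well above them in both genes. Rfc2 was steady, at 182, 177, 206 and 187 CPM. In the summed FPKM of the 4 small subunits, Rfc3 took 18.4%, 17.8%, 12.3% and 7.61%, and Rfc4 26.7%, 23.5%, 25.9% and 43.7%. The split of transcripts among these genes thus differed most in cKO replicate 2. RNA levels do not show the make-up of the protein complex. Fen1, the flap nuclease, had 5, 0, 1 and 7 counts and was left out by the filter on low counts. Annotated genes on the opposite strand cover 2039 of its 2422 exon bases, or 84.2%, and the sources used here do not say whether the authors counted by strand.

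For nucleotide supply and uracil removal, 3 of 6 genes were fitted higher and 3 lower. The median log2 fold change was -0.03, and it turned to 0.13 without cKO replicate 1. Tk1 (ENSMUSG00000025574, chromosome 11, 117815526 to 117826092 on the minus strand, GRCm38), thymidine kinase, was at 47.9, 36.0, 55.7 and 68.9 CPM. The groups did not overlap (log2 fold change 0.57, SE 0.31, edgeR adjusted p 0.9997). Ung, the glycosylase that removes uracil from DNA, was at 46.1, 50.1, 43.8 and 26.8 CPM (log2 fold change -0.45, SE 0.36). The first cKO library lay just under the WT values. Dut, which keeps dUTP low, was at 18.0, 20.9, 13.1 and 20.7 CPM and Tyms, thymidylate synthase, at 43.8, 33.2, 40.1 and 52.9 CPM. Both overlapped between the groups. Ribonucleotide reductase was read in its subunits: Rrm1 at 313, 256, 221 and 322 CPM and Rrm2 at 24.0, 27.2, 27.2 and 24.7 CPM. Rrm2, the subunit whose supply is known to limit the enzyme in cycling cells, made up 23.4%, 29.7%, 32.9% and 23.3% of their summed FPKM. These shares rest on implied lengths of 11013 bases for Rrm1 and 2771 for Rrm2.

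The chromatin factors had a median log2 fold change of -0.42, with 3 of 5 fitted lower; it turned to 0.06 without WT replicate 1. Uhrf1 (ENSMUSG00000001228, chromosome 17, 56303321 to 56323486 on the plus strand, GRCm38) recruits the maintenance DNA methyltransferase to replicated DNA and has E2F letters in the window above. It was at 54.1, 63.1, 43.9 and 43.5 CPM. Both cKO libraries lay below both WT libraries and within 1 CPM of each other (log2 fold change -0.42, SE 0.27, edgeR adjusted p 0.9997). Hells, a remodeller that serves DNA methylation, was at 43.7, 14.1, 14.2 and 19.3 CPM. Its log2 fold change of -0.79 (SE 0.65) rested on WT replicate 1 and turned to 0.24 without that library. Chaf1a, a subunit of the histone chaperone CAF-1, was at 36.4, 22.8, 19.6 and 22.5 CPM (log2 fold change -0.49, SE 0.41). The second WT value lay barely above the second cKO value, and with RLE or upper-quartile scaling the groups overlapped. Its partner Chaf1b was at 73.8, 48.0, 65.3 and 57.9 CPM, and both cKO values lay between the WT values. Slbp, which binds the stem-loop of histone mRNAs, was at 122, 143, 130 and 169 CPM, with overlap.

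**Figure D4:**
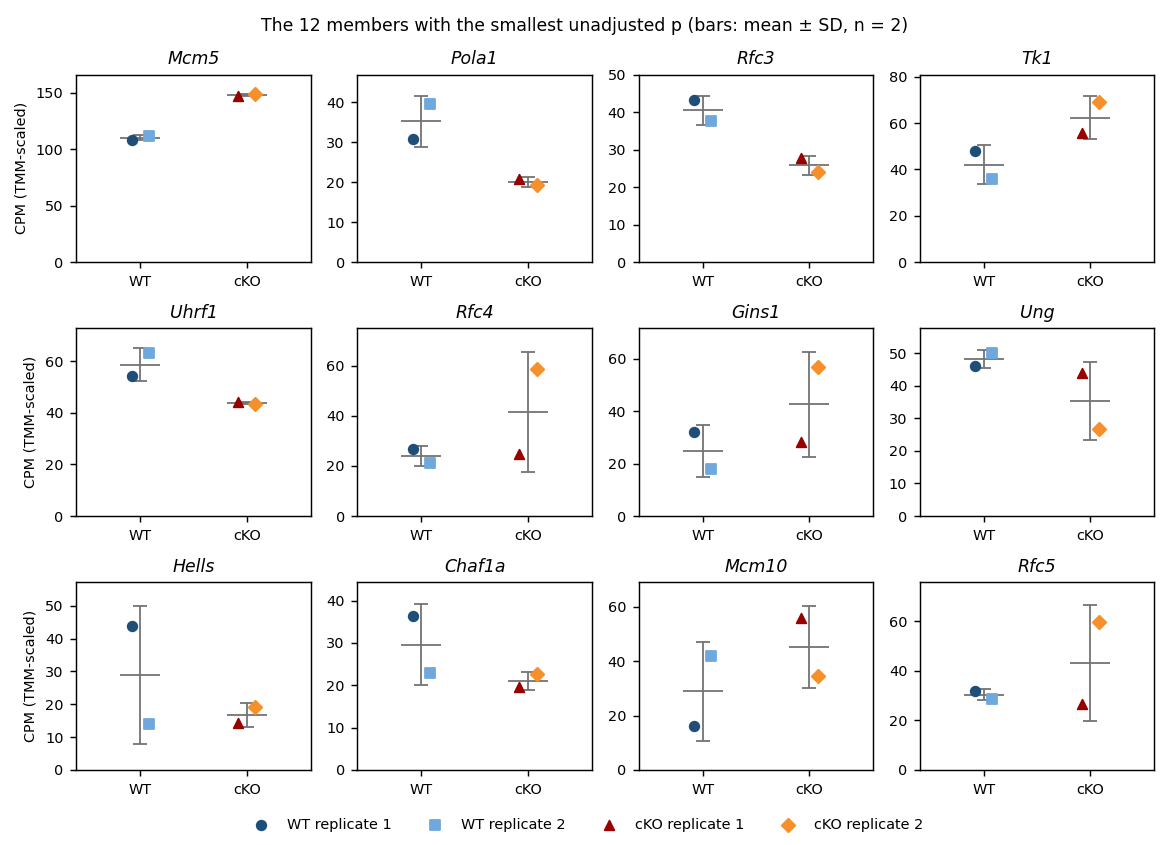
CPM (TMM-scaled, linear axes from 0) of the 12 members with the smallest unadjusted edgeR p, by library, with the mean and SD of each group (n = 2). The libraries of 1 group lie close together in Mcm5, Rfc3 and Uhrf1, while in Rfc4, Gins1 and Rfc5 the higher mean of cKO rests on cKO replicate 2 and in Hells the higher mean of WT rests on WT replicate 1.

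Of the regulators of S-phase entry, E2f1, an activating E2F, was at 31.4, 14.3, 27.2 and 15.001 CPM, with each group holding a high and a low library. E2f2 (ENSMUSG00000018983, chromosome 4, 136172394 to 136196057 on the plus strand, GRCm38), another activator, had 97, 217, 228 and 0 counts. As with Pole, the count was 0 in cKO replicate 2 alone, and the lowest of the other libraries was at least 30.9-fold above the floor of 3 counts there. Dropping cKO replicate 1 moved the fitted log2 fold change of E2f2 to -10.31. That value rests on cKO replicate 2 as the lone cKO library, with the spread taken from WT. Dropping cKO replicate 2 instead turned the value to 0.37. Dtl, the substrate receptor of the ligase that destroys CDT1 in S phase, was at 56.8, 35.5, 51.9 and 49.2 CPM, inside the range of WT. The 12 members with E2F letters had a median log2 fold change of -0.05, with 5 fitted higher, 2 above and 4 below WT without overlap, where 15.8% and 20.0% of all genes tested lay above and below. The 21 tested members with a promoter but no such letters had a median of 0.02, with 11 fitted higher, 2 above and 3 below by the same count.

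The 2 cKO libraries often differed from each other in these genes. They were more than 2-fold apart for 9 members (23.7%), and 40.9% of all genes tested were; the 2 WT libraries were more than 2-fold apart for 6 members (15.8%), against 19.6% of all genes. The second cKO library was the highest of the 4 for 14 members and the lowest for 13, so 27 of 38 had an extreme value there. Among all genes it was highest for 32.1% and lowest for 39.1%. Its highest members included Pcna, Gins1, Gins2, Rfc4, Rfc5 and Tk1, and its lowest Pold1, Pole, Lig1, Prim1, Orc1 and Ung. The members' median distance from the median of the other 3 libraries was 0.48 on the log2 scale in cKO replicate 2, less than the 0.75 of all genes, and 0.22 to 0.30 in the other libraries. All genes tested had a lower median level than the members (4.01 to 4.11 against 7.72 to 8.85 FPKM). The part of level in these differences was not tested.

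Other genes of the pathway were read from 5 lists, and edgeR and DESeq2 called 0 genes in each, with 0 to 4 genes per list at an unadjusted edgeR p under 0.05. Among 40 further genes of the replication machinery, 9 (22.5%) lay above WT in both cKO libraries, where 15.8% of all genes did. Below WT in both lay 7 (17.5%), where 20.0% of all genes did. Of the 40, 25 were fitted higher and 15 lower, with a median log2 fold change of 0.06. The 4 of these with the smallest p were Chtf18, a subunit of the alternative clamp loader, at 30.4, 26.2, 7.38 and 8.07 CPM; Mcm8, a helicase of recombination, at 2.42, 5.32, 8.58 and 23.1 CPM; Pole3, a histone-fold subunit of polymerase epsilon, at 74.3, 60.7, 31.9 and 48.9 CPM; and Timeless, of the fork protection complex, at 60.8, 48.1, 35.1 and 12.3 CPM. In these 4 the groups did not overlap, and the log2 fold changes were -1.87, 2.03, -0.74 and -1.20 (SE 0.43, 0.85, 0.34 and 0.58). Among 18 genes of nucleotide metabolism, 12 were fitted higher, with a median of 0.29. Dck, the deoxycytidine kinase, was at 79.0, 54.3, 92.4 and 105 CPM, without overlap between the groups (log2 fold change 0.56, SE 0.28). Samhd1, which degrades deoxynucleotides, and Cad, which starts pyrimidine synthesis, had log2 fold changes of 0.57 and 0.62, and both overlapped.

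Of 26 tested genes of G1/S control, 10 were fitted higher and 16 lower, with a median of -0.17. E2f3, a further activating E2F, was at 3.95, 5.32, 15.9 and 19.0 CPM, without overlap (log2 fold change 1.91, SE 0.58). Skp2, the F-box protein that targets the inhibitor p27, was at 50.8, 41.2, 27.5 and 17.6 CPM. Ccnd1 was at 139.5, 128, 185 and 185 CPM, and Cdkn1a, the p21 inhibitor of cyclin-dependent kinases, at 88.1, 93.7, 132 and 123 CPM, so a cyclin and an inhibitor of its partners lay above WT together. Among 21 tested genes of S-phase chromatin and repair, 10 were fitted higher, with a median of -0.01; the smallest p belonged to Fanci, Rbbp4, Esco2 and Asf1b, with log2 fold changes of -0.69, 0.48, -1.42 and 0.63. Dnmt1, the partner of Uhrf1 and named after its values were seen, was at 118, 133, 132 and 35.9 CPM, low in cKO replicate 2.

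Genes of mitosis and G2/M lay mostly on the higher side in cKO. Of 32, 26 were fitted higher and 17 (53.1%) lay above WT in both cKO libraries, where 15.8% of all genes did, while 0 lay below. Their median log2 fold change was 0.45, ranging from 0.24 without cKO replicate 2 to 0.68 without cKO replicate 1. Hmgb2, a chromatin protein of dividing cells, was at 105, 124, 171 and 211 CPM and Prc1, of the mitotic spindle midzone, at 32.4, 36.7, 54.5 and 83.1 CPM. Cenpe and Hmmr had the next smallest p, with log2 fold changes of 1.07 and 0.82. Mki67, named after its values were seen, was at 118, 90.9, 74.0 and 193 CPM and overlapped. Summed FPKM of the list was 456, 456, 550 and 781, against 529, 472, 516 and 568 for the replication members. The largest sum was that of cKO replicate 2, the library that stood apart. The summed markers of astrocytes, of neutrophils and monocytes, and of erythroid cells were also highest in that library. Their part in the G2/M values was not tested. The difference between the lists was not tested, and none of the 32 genes was called by edgeR or DESeq2.

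**Figure D5:**
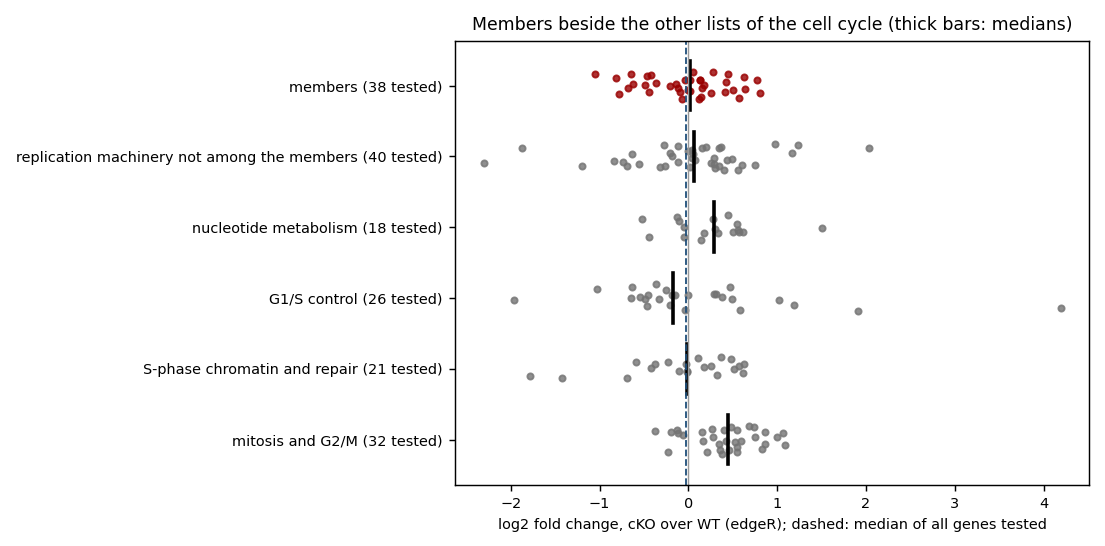
Log2 fold change of cKO over WT (edgeR) for every tested gene of the replication and S-phase members and of 5 further lists of the cell cycle, 1 point per gene, with list medians as thick bars and the median of all genes tested as a dashed line. The members centre on 0.02, while the genes of mitosis and G2/M centre on 0.45.

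The authors' deposited tables compare 1 cKO library with 1 WT library each, so the 4 tables share libraries and carry no replicates. The authors' deposited table of cKO replicate 1 against WT replicate 1 marked 5 of 39 members, 4 up and 1 down (12.8%, against 36.1% of all its genes). The authors' deposited table of cKO replicate 1 against WT replicate 2 marked 2 of 38, both up (5.26%, against 34.8%). With cKO replicate 2, the authors' deposited tables marked 3 members up and 6 down against WT replicate 1 (23.1%, against 46.8%) and 7 up and 5 down against WT replicate 2 (30.8%, against 48.8%). In each of the authors' deposited tables the members' share was the smaller of the pair, a difference that was not tested. In all 4 of the authors' deposited tables together, 0 members were marked up and 0 down, where 2.25% of genes were marked up and 5.22% down throughout. Over the authors' deposited tables, 21 members were marked in none. Mcm10, Orc1 and Rfc4 were marked up in 2 of the authors' deposited tables, and Hells, Lig1, Pold1, Pole and E2f2 were marked down in 2. E2f2 and Prim1 were marked in both directions across the authors' deposited tables, for example Prim1 with a log2 ratio of 1.34 for cKO replicate 1 over WT replicate 1 and -1.10 for cKO replicate 2 over WT replicate 2.

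Some members share sequence or ground with other genes, which leaves their counts less certain. In the GENCODE M21 annotation of GRCm38, 14 of the 39 share exon bases with a gene on the opposite strand. The largest overlaps after Fen1 are those of Gins2, with 2758 of 4097 exon bases in Gse1, and of Chaf1a, with 4648 of 8854 in Ubxn6. The deposited FPKM of Chaf1a implies a length of 3308 bases, so the model behind its counts was not the whole GENCODE gene. Gse1 had 287, 118, 221 and 30 counts and Ubxn6 1336, 1000, 1180 and 654. Gse1 ranked the libraries in the reverse order of Gins2, and Ubxn6 ranked them in another order than Chaf1a. What the overlaps did to the counts was not tested. More than 10% of the 50-base words of Pcna (19.1%), Mcm7 (18.1%) and Uhrf1 (15.4%) also occur in another gene, in each case mainly a processed pseudogene, and 13 members share no such word.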

How the data were processed

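Per the labels, total RNA of mouse microglia gave 4 Illumina libraries. The submitters' processing notes name TopHat2 2.0.12, Bowtie2 2.2.3, HTSeq 0.6.0 and the build mm9; strand handling and annotation are not stated there. The deposited positions equal those of GRCm38 (GENCODE M21) for 92.1% of 21008 shared genes and 38 of 39 members, and coordinates here use that build.

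Deposited by the authors were FPKM values of 21044 genes and 4 pairwise tables. Per the file headers, the deposited tables hold read counts per gene, a normalized signal (not used), the authors' fold ratio and its log2, and raw and adjusted p-values. The sources used here do not give their test. The authors' deposited adjusted p-value is below the p-value for most genes, and calls in these tables have a fold of at least 2. Joining these tables gave counts of 18459 genes. Where a gene was missing for a library, its count was recovered from FPKM, for 4315 of 73836 values, each whole within 1e-06 and at most 4.

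Genotypes were compared with edgeR 4.0.16 under R 4.3.3 (TMM, filterByExpr, quasi-likelihood F test, Benjamini-Hochberg adjustment over all 13086 genes tested, threshold 0.05). CPM values are TMM-scaled, and standard errors derive from the F statistic. DESeq2 1.42.0, limma 3.58.1 on log2(FPKM + 1) and log2(FPKM + 0.1), other scalings and filters, a replicate block and leaving out each library were the alternatives. Scripts were tested on simulated data. Libraries of 1 group differed beyond sampling noise (chi-square per degree of freedom 27.8 in WT and 107.5 in cKO), so each counted as 1 sample. The floor of 3 counts covers counting error only. Full statistics are given for the 12 members of smallest unadjusted edgeR p. Up to 4 genes of each further list with the smallest p are named with levels or fold changes; 1 of them is not reported here. Members, lists and tests were chosen with earlier results of these data known.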

Additional observations from a re-analysis of the deposited data

How the results depend on the processing

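Under 9 alternatives of tool, scaling, filter, unit and block, 342 fitted values of single members gave 0 past the threshold and 7 in the other direction: Mcm7 at 0.00997 with DESeq2, 0.0101 with RLE factors, 0.00556 with upper-quartile factors, 0.0445 with library totals only, 0.0294 with limma at a pseudocount of 1 and 0.0302 at 0.1, and Mcm2 at 0.0101 with library totals only. DESeq2 called 39 genes where edgeR called 0. Both cKO libraries lay below WT for 4 members, not 7, with library totals only and in FPKM. Deviations from the group means correlated at -0.02 between libraries of the same replicate number. With 2 libraries a group this is the same value for both numbers, and it cannot show whether the libraries were paired. The fit with the replicate block called 0 genes, with a member median of 0.03 and a median of all genes of -0.10. Leaving out 1 library at a time gave 0 to 748 genes and 0 to 2 members called, both highest without cKO replicate 1, where the median of all genes was -0.15. Over the same settings the member median ran from -0.10 to 0.10, members above WT from 9 to 16 and below from 12 to 14. These counts grow because fewer libraries must line up. The 15.8% and 20.0% of all genes come from all 4 libraries and are no background for them, so nothing about the members is read from these counts. The list medians ran from 0.0457 to 0.25 (replication machinery), 0.0150 to 0.17 (S-phase chromatin and repair), -0.34 to -0.0221 (G1/S control) and 0.0365 to 0.45 (nucleotide metabolism). Fitted directions held for 18 members whichever library was left out. Several of these came near 0, among them Pold1 from -1.96 to -0.01, Pole from -11.16 to -0.06, Rfc4 from 1.30 to 0.05, Mcm10 from 1.48 to 0.10, Chaf1a from -0.80 to -0.12 and Ung from -0.84 to -0.13. The other 20 ran from -0.36 to 0.23 (Mcm2), -0.28 to 0.48 (Mcm4), -0.25 to 0.21 (Mcm7), -0.48 to 0.74 (Pcna), -0.36 to 0.18 (Rrm1), -0.0792 to 0.10 (Rrm2), -0.11 to 0.80 (Gins2), -0.63 to 0.22 (Cdc6), -0.36 to 0.83 (Cdt1), -0.17 to 0.50 (Dtl), -0.61 to 0.55 (E2f1), -10.31 to 0.37 (E2f2), -0.72 to 0.78 (Prim1), -1.17 to 0.15 (Lig1), -0.19 to 0.98 (Rfc5), -0.27 to 0.35 (Chaf1b), -1.39 to 0.24 (Hells), -0.73 to 1.08 (Orc1), -0.57 to 0.0865 (Dut) and -0.0240 to 0.35 (Slbp). The cause of these reversals was not tested. The part of depth was not tested; 34 members had at least 100 counts in every library.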
